A study of Mus musculus with 24 samples.

Results

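Hes1 and 8 further genes of the Notch pathway (Hey1, Notch1, Notch2, Notch3, Notch4, Jag1, Jag2 and Lfng) were followed through 24 RNA-seq libraries of a mouse cell line. The members were taken by gene symbol from the 6 deposited tables, and all 9 were found in every table, among 25124 genes in 5 tables and 26188 in the table of TCA in the tetra line. Hes1 was chosen by its measured response to corticosterone, which had been seen to differ between the 2 lines, and the other 8 by their place in the pathway, with results of these data known. So its values with and without corticosterone in the absence of TCA are given as a description, with no test.

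The cells are C127 (written C127l in the labels), a line from a mouse mammary adenocarcinoma. In all 24 samples the cells' own glucocorticoid receptor had been knocked out, and a GFP-tagged mouse receptor was carried instead, either the form labelled GFP-mGRtetra (tetra line), which the labels do not describe further, or the wild type labelled GFP-mGRwt (wt line). Each line was given 100 µM TCA plus 100 nM corticosterone (Cort), TCA alone, Cort alone or vehicle, with 2 h of treatment after 24 h in charcoal-stripped serum. What TCA stands for is not given there. This gives 8 groups of 3 libraries. The labels do not say that the 3 libraries of a group came from separate cultures, so p-values measure the spread between these libraries, which may be technical. The labels do not say how many clones make up a line, so the form of the receptor and other differences between the lines cannot be told apart. They also name no batch, so a response to a treatment and a difference in the handling of its libraries cannot be told apart.

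Notch receptors are membrane proteins that are cut when a ligand such as Jag1 or Jag2 on a neighbouring cell binds them. The freed inner part enters the nucleus, joins the DNA-binding protein Rbpj and turns on target genes, of which Hes1 and Hey1, both transcriptional repressors, are among the best known. Lfng, a sugar transferase of the Golgi, changes the sugars on the receptors and so how they answer different ligands. Hes1 also represses its own gene, which gives short pulses of its RNA. In the mammary gland, Notch signalling takes part in the choice between luminal and basal fates.

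Lfng, Notch4 and Notch2 are the members that rose with Cort in the tetra line, and the 250 bases before their starts are shown for that reason. They come from RefSeq on mm10 and are written 5′ to 3′ on the strand of the gene, at chr5:140607091-140607340 for Lfng, chr17:34564045-34564294 for Notch4 and chr3:98013288-98013537 for Notch2, all on the plus strand. Capitals mark matches to the core of the Rbpj site (GTGGGAA) or to the N box bound by Hes proteins (CACNAG), on either strand.
Lfng: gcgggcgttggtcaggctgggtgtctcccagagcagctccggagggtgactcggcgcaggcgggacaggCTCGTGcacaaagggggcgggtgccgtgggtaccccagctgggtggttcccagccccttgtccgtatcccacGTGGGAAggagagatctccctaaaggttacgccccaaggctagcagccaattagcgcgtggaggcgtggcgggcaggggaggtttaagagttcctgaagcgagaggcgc
Notch4: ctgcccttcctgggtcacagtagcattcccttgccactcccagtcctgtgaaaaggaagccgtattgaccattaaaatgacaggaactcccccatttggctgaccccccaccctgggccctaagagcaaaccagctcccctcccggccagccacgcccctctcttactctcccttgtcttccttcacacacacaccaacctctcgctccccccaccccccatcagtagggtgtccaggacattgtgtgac
Notch2: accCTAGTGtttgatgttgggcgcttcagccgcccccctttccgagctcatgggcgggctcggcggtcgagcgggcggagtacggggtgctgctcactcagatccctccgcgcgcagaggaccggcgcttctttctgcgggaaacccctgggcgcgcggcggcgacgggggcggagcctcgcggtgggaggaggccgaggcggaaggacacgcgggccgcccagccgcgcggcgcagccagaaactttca
The Lfng stretch held 1 Rbpj core, 109 bases before the start, and 1 N box, 181 bases before it. The Notch2 stretch held 1 N box, 247 bases before the start, and the Notch4 stretch held neither motif. Windows were matched for 7 of the 9 members. Hes1 and Hey1 had none, so their promoters were not searched. The matches outside the 3 stretches shown were N boxes, 1 in Notch1 and 2 in Notch3. None of the 7 windows held a full glucocorticoid response element (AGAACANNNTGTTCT) or its half-site (AGAACA). Among 32851 promoter windows of the same length, 5.42% held the Rbpj core, 36.7% the N box, 0.0091% the full element and 16.1% the half-site, with overlaps between motifs allowed. A match is a stretch of letters, and binding was not measured.

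The libraries held between 22024666 and 30568577 reads in exons, recovered from the deposited values. Levels are given as normalised counts, which are reads per gene divided by a size factor common to the 24 libraries. Per1, a clock gene that the glucocorticoid receptor turns on, was higher with Cort in each setting. It rose 4.75-fold with TCA and 5.33-fold without it in the tetra line, and 5.68-fold and 6.78-fold in the wt line. Tsc22d3, planned as a check beside Per1, rose 3.31-fold and 3.37-fold in the tetra line, and 2.11-fold and 2.99-fold in the wt line. Its wt response with TCA minus that without was -0.50 on the log2 scale (limma, adjusted p = 0.00433). With TCA, its response to Cort, tetra minus wt, was 0.64 (limma, adjusted p = 0.0464). Nr3c1, the symbol shared by the knocked-out gene and the added receptor, had 4886 to 6494 normalised counts in the 12 tetra libraries and 4189 to 6147 in the 12 wt libraries. Epithelial markers were nearly absent: Epcam was at 0 in all 24 libraries, Krt5, Krt18, Cdh1 and Cldn4 stayed at or under 2.07 normalised counts, and of the 10 markers Krt14 alone was abundant (138 to 1214). Of 7 mesenchymal markers, Vim, Col1a2 and Fn1 had between 29536 and 118473 normalised counts. The others were lower: Pdgfrb had 3164 to 7820, Cdh2 2454 to 3337, Pdgfra 400 to 817 and Col1a1 79.6 to 238. Among 6 immune markers only Cd68, and among 5 endothelial markers only Cdh5, went above 8.54 normalised counts. One library, replicate 3 of TCA in the wt line, weighed on several counts. Where a call of a member or a count of calls changed without it, the value without it is given too. It was not the library furthest from its group. Its distance from the mean of the others in its group was 0.192 (root mean square over genes, log2 scale). Replicates 1 and 3 of TCA in the tetra line lay at 0.208 and 0.192, and the median over the 24 libraries was 0.143.

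Normalised per 1000 bases of transcript, Notch2 was the most abundant member, with a mean of 566 over the 24 libraries. Lfng followed at 226, Hes1 at 150, Notch3 at 112, Jag1 at 71 and Notch1 at 38.5, all per 1000 bases. Notch4 (8.08), Jag2 (3.50) and Hey1 (0.367) were scarce. Over the 8 group means, the highest mean was 4.22 times the lowest for Notch4, 2.56 times for Jag1, 2.55 times for Notch3, 2.34 times for Jag2, 1.83 times for Lfng, 1.62 times for Hes1, 1.33 times for Notch1 and 1.24 times for Notch2.

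In the tetra line, Cort alone raised Lfng 1.53-fold, Notch2 1.24-fold and Notch4 2.36-fold, and in the wt line it raised Lfng 1.43-fold. On top of TCA, Cort raised Lfng 1.83-fold and Notch4 1.96-fold in the tetra line, while no member passed the test in the wt line (without replicate 3 of TCA, Lfng, Notch3 and Hes1 did). TCA alone went with a 2.31-fold higher Jag1, a 1.55-fold lower Notch3 and a 1.12-fold lower Notch2 in the wt line. The Notch2 call was kept in 1 of 6 fits that each left out 1 library. Without replicate 3 of TCA, Lfng was also called in the wt line, 1.31-fold lower. In the tetra line no member was called with TCA alone. Without treatment, the tetra line had 1.61-fold more Notch3 and 1.47-fold more Jag1 than the wt line, and 1.22-fold less Notch2. Notch1 and Jag2 were called in none of the comparisons, and Hey1 was too scarce to test. These folds are ratios of mean normalised counts.

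The members' counts are read against the share of all tested genes called, at an adjusted p below 0.05 from limma. Hes1 is left out of these counts, since its response chose it, which leaves 7 tested members. With Cort against vehicle, 3 of the 7 were called in the tetra line, where 3.34% of 12863 genes were called. For the wt line 1 of 7 was called, where 2.38% of 12749 genes were called. With TCA plus Cort against TCA, 2 of 7 were called in the tetra line (1.71% of 12830 genes) and 0 in the wt line (0.415% of 12774 genes). Without replicate 3 of TCA, 2 of 7 were called in the wt line, where 20.1% of genes, 2569 in number, were then called. With all libraries of that wt comparison, 2204 genes had an unadjusted p below 0.05, and limma voom called 52 where limma on the deposited values called 53. With TCA against vehicle, 0 of 7 were called in the tetra line (0.0153% of 13075 genes, 2 genes by limma and 2 by limma voom, and 524 at an unadjusted p below 0.05). For the wt line 3 of 7 were called, which is 42.9% beside 57.4% of 12725 genes. Without replicate 3 of TCA it was 4 of 7, beside 59.5% of genes. Between the lines under vehicle, 3 of 7 were called, which is 42.9% beside 44.2% of 12803 genes, a share near that of all genes. The vehicle libraries of a line serve in its Cort and TCA comparisons and in the comparison of the lines, so these counts share samples.

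Differences between responses were tested on log2(normalised count + 1). For the response to Cort, tetra minus wt, 2 of the 7 members were called (1.17% of 12843 genes). For the response to TCA, tetra minus wt, 2 of 7 were called (41.5% of 12786 genes), and 4 of 7 without replicate 3 of TCA in the wt line (41.6%). For the Cort response with TCA minus that without TCA, 1 of 7 was called in the wt line (3.51% of 12809 genes, and 13.0% without replicate 3 of TCA, still with 1 of 7). In the tetra line 0 of 7 were called and 0 of 12848 genes (0.00%), by limma and by limma voom, with 512 genes at an unadjusted p below 0.05. For the Cort response in the presence of TCA, tetra minus wt, a comparison added after seeing the data, 0 of 7 were called (0.656% of 12810 genes, 84 by limma and 82 by limma voom, 980 at an unadjusted p below 0.05).

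**Figure D1:**
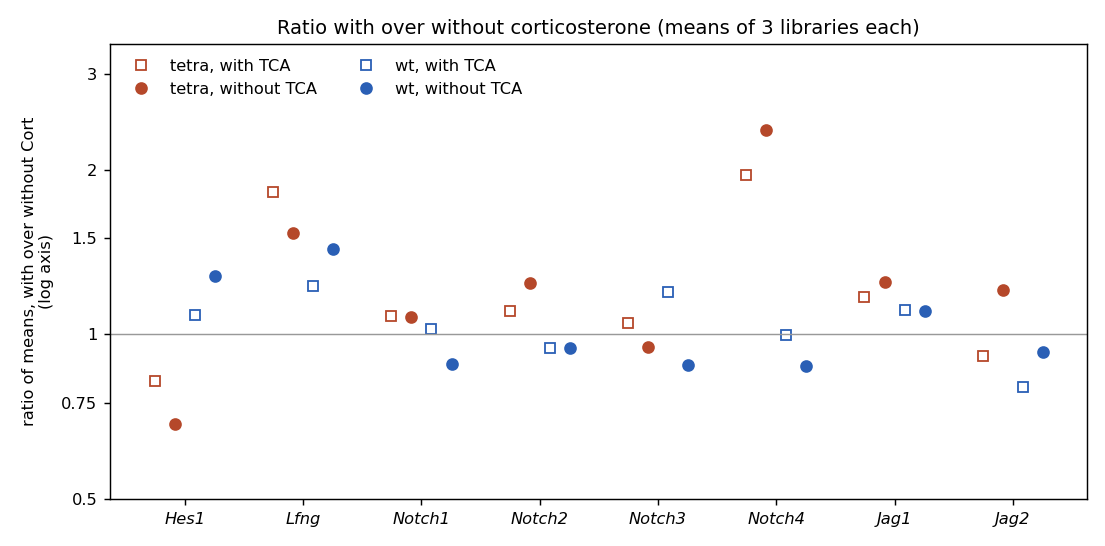
Ratio of mean normalised counts with over without Cort for the 8 tested members, on a log axis, with red for the tetra line, blue for the wt line, open squares in the presence of TCA and filled circles in its absence. Each symbol is a ratio of 2 means of 3 libraries. Notch4 lies at 1.96 and 2.36 in the tetra line and at 0.996 and 0.875 in the wt line, and Hes1 lies below 1 in the tetra line and above 1 in the wt line.

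Hes1 (NM_008235, chr16:30065357-30067796 on mm10, plus strand), the repressor that stands for pathway output in many studies, was of moderate abundance. Its normalised counts in the tetra line were 248, 222 and 200.4 with TCA plus Cort, 312, 239 and 264 with TCA, 164, 185 and 154 with Cort, and 274, 221 and 239 with vehicle. In the wt line they were 196, 203 and 148 with TCA plus Cort, 146, 135 and 223 with TCA, 269, 291 and 244 with Cort, and 215, 191 and 222 with vehicle. All 3 tetra libraries with Cort alone lay below all 3 with vehicle, and all 3 wt libraries with Cort alone lay above all 3 with vehicle. The ratio of means, Cort over vehicle, was 0.686 in the tetra line and 1.28 in the wt line, a difference of -0.90 on the log2 scale (tetra minus wt). This is the difference for which Hes1 was chosen.

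In libraries that the choice did not use, Hes1 had a ratio of 0.823 with TCA plus Cort over TCA in the tetra line, and the groups overlapped. The difference on the deposited log2-like scale was -0.14 ± 0.062 (SE, adjusted p = 0.605). In the wt line the ratio was 1.09, with overlapping groups and a difference of 0.049 ± 0.063 (adjusted p = 0.73). The difference between the lines, tetra minus wt, was -0.41 on the log2 scale (95% interval -0.90 to 0.079, adjusted p = 0.732), which has the sign of the difference without TCA and did not pass the test. Without replicate 3 of TCA in the wt line, the wt ratio was 1.30 (adjusted p = 0.0498) and the difference between the lines was -0.63 (adjusted p = 0.242). Without replicate 2 of TCA in the wt line, the wt difference was -5.4e-04 on the deposited scale (adjusted p = 0.998).

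TCA over vehicle gave Hes1 ratios of 1.11 in the tetra line and 0.80 in the wt line, and tetra over wt under vehicle gave 1.17. The groups overlapped in all 3. Because these use the vehicle libraries that also entered the choice of Hes1, they carry no test. Without replicate 3 of TCA, the wt ratio of TCA over vehicle was 0.669. In the order of the 8 group means Hes1 was highest in tetra TCA (272 ± 37.1, SD, n = 3), followed by wt Cort (268 ± 23.5), tetra vehicle (245 ± 27.1), tetra TCA plus Cort (224 ± 23.9), wt vehicle (209.6 ± 16.5), wt TCA plus Cort (182 ± 30), tetra Cort (168 ± 15.8) and wt TCA (168 ± 47.8). Each pair of neighbours in this order had overlapping libraries. The most similar of 10770 genes over the 8 group means were Brd9 (Pearson r = 0.934), Klhl18 (0.919), Prkag3 (0.913), Evi2 (0.889) and Wbp4 (0.884). This is a description of means that share libraries, and Pearson r takes no account of the size of a change or of the spread within groups. The Hes1 means include the Cort and vehicle values for which it was chosen. How many of the genes would come this close by chance was not tested. Group means ran from 542 to 590 for Brd9, 469 to 509 for Klhl18 and 558 to 601 for Wbp4. Within a group the SD reached 32.6 for Brd9 (wt Cort), 42.2 for Klhl18 (wt TCA) and 37.9 for Wbp4 (tetra TCA). The group means ran from 38.6 to 69.8 for Prkag3 and 41.8 to 67.0 for Evi2.

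**Figure D2:**
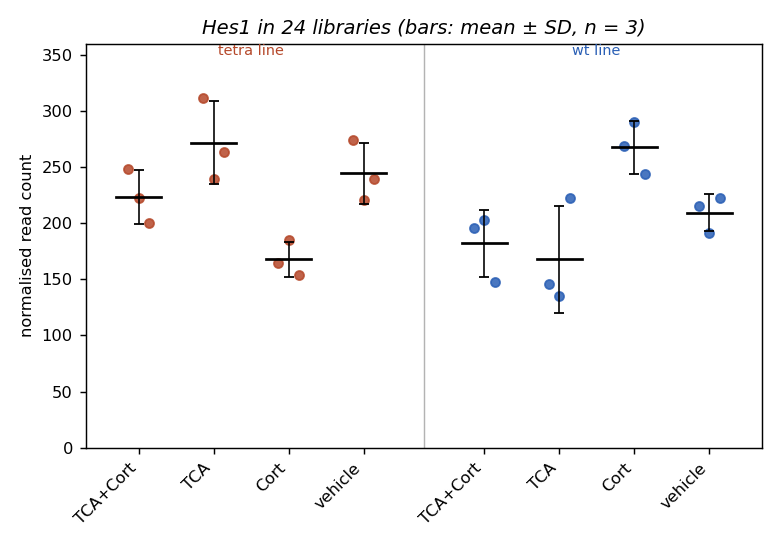
Hes1 normalised counts (vertical axis) in the 24 libraries by group, tetra line in red on the left and wt line in blue on the right, with a bar at the mean and whiskers of 1 SD (n = 3). The tetra Cort libraries lie at 154 to 185, under the tetra vehicle libraries at 221 to 274, and the wt Cort libraries lie at 244 to 291, over the wt vehicle libraries at 191 to 222.

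Hey1 (NM_010423, chr3:8663359-8667038, minus strand), the other target, was barely detected. It had 0 to 5 reads in a library and 19 reads in the 24 libraries together, and its mean stayed under the minimum of 10 normalised counts that a gene needed to enter a test. No difference in Hey1 was detectable at this depth.

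Lfng (NM_008494, chr5:140607341-140615545, plus strand), the sugar transferase whose start region is shown above, rose with Cort in both lines. Its normalised counts in the tetra line were 801, 771 and 588 with TCA plus Cort, 419, 379 and 385 with TCA, 598, 645 and 594 with Cort, and 384, 416 and 398 with vehicle. In the wt line they were 507, 506 and 430.0 with TCA plus Cort, 368, 326 and 485 with TCA, 687, 716 and 549 with Cort, and 441, 436 and 485 with vehicle. Every tetra library with Cort lay above every tetra library without it, and the wt libraries with Cort alone lay above those with vehicle. The wt libraries with TCA plus Cort overlapped those with TCA.

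With Cort alone, Lfng rose 1.53-fold in the tetra line (0.31 ± 0.036, SE, on the deposited log2-like scale, adjusted p = 1.2e-05) and 1.43-fold in the wt line (0.26 ± 0.045, adjusted p = 0.00153). The deposited scale is compressed at low counts, so its differences are smaller than the log2 of the folds. On top of TCA, Lfng rose 1.83-fold in the tetra line (0.56 ± 0.073, adjusted p = 1.9e-04) and had a ratio of 1.22 in the wt line (adjusted p = 0.225). Without replicate 3 of TCA, the wt ratio was 1.39 (adjusted p = 2.7e-04). The response did not pass the test of a difference between the lines, either without TCA (0.10, 95% interval -0.15 to 0.35, adjusted p = 0.957) or with TCA (0.55, interval 0.17 to 0.94, adjusted p = 0.346). TCA alone gave ratios of 0.987 in the tetra line (adjusted p = 0.985) and 0.865 in the wt line (adjusted p = 0.14), and without replicate 3 of TCA the wt ratio was 0.764 (adjusted p = 0.00129). The difference between the lines in the response to TCA was 0.20 on the log2 scale (95% interval -0.12 to 0.53, adjusted p = 0.314), and 0.36 without that library (adjusted p = 0.0216). Under vehicle, tetra over wt was 0.88 (adjusted p = 0.0598), with no overlap of the libraries.

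**Figure D3:**
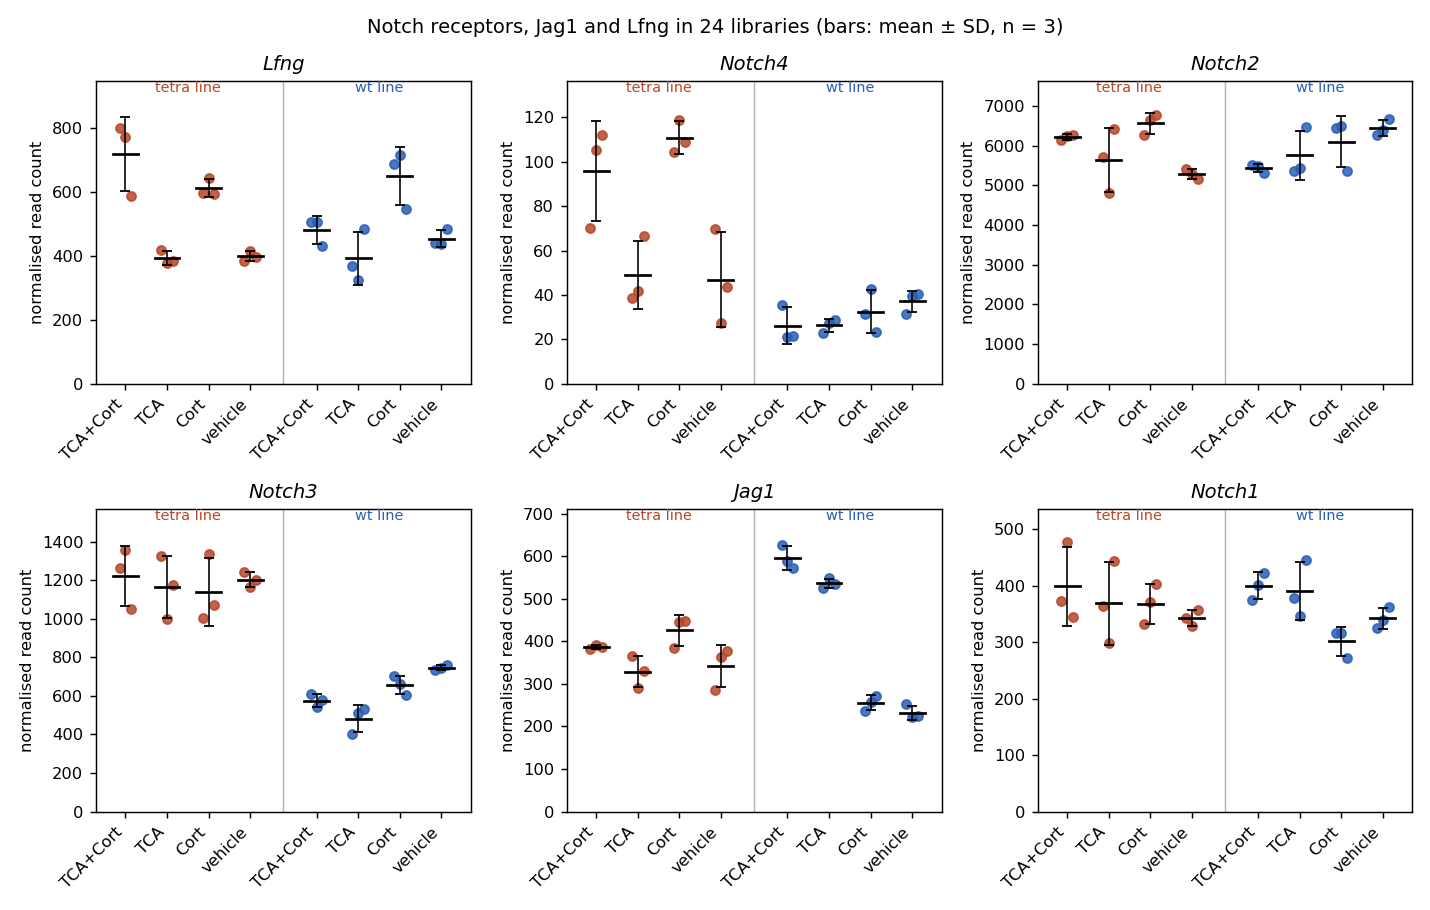
Normalised counts (vertical axes, each from 0) of Lfng, Notch4, Notch2, Notch3, Jag1 and Notch1 in the 24 libraries by group, tetra line in red on the left and wt line in blue on the right, with bars at the mean and whiskers of 1 SD (n = 3). Notch4 lies at 70.1 to 119 in the tetra libraries with Cort and at 21.2 to 42.7 in the wt libraries, and Jag1 lies at 527 to 627 in the wt libraries with TCA and at 222 to 272 in those without.

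Notch4 (NM_010929, chr17:34564295-34588543, plus strand), a receptor best known from blood vessels, was scarce, and Cort moved it in the tetra line. It had 70.1, 105 and 112 normalised counts in tetra cells with TCA plus Cort, 38.5, 41.6 and 66.6 with TCA, 105, 119 and 109 with Cort, and 69.9, 27.2 and 43.6 with vehicle. In wt cells it had 35.7, 21.2 and 21.8 with TCA plus Cort, 22.9, 27.4 and 28.7 with TCA, 31.6, 42.7 and 23.3 with Cort, and 31.6, 39.6 and 40.2 with vehicle. All tetra libraries with Cort lay above all tetra libraries without it, by a narrow margin in the presence of TCA, and the wt groups with and without Cort overlapped.

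With Cort alone, Notch4 rose 2.36-fold in the tetra line (0.28 ± 0.046 on the deposited scale, adjusted p = 6.6e-04) and had a ratio of 0.875 in the wt line (adjusted p = 0.799). The difference between the lines was 1.54 ± 0.36 on the log2 scale (adjusted p = 0.0333). That call was lost in 9 of 12 fits that each left out 1 library (adjusted p = 0.0551 to 0.112), and was kept without wt vehicle 1, wt Cort 2 or tetra vehicle 1. On top of TCA, Notch4 rose 1.96-fold in the tetra line (0.28 ± 0.067, adjusted p = 0.0404) and had a ratio of 0.996 in the wt line (adjusted p = 0.975). This tetra call was lost without TCA replicate 1 (adjusted p = 0.114) or 2 (0.239) and without TCA plus Cort replicate 2 (0.214) or 3 (0.121). The difference between the lines in the presence of TCA was 1.01 (95% interval 0.26 to 1.76, adjusted p = 0.417). TCA alone gave ratios of 1.04 in the tetra line (adjusted p = 0.982) and 0.709 in the wt line (adjusted p = 0.09), and tetra over wt under vehicle was 1.26 (adjusted p = 0.492). Of the 5 endothelial markers, Cdh5 had 93.4 to 308 normalised counts, and Pecam1, Kdr, Tek and Vwf stayed at or under 6.97. The summed list lay at 204 to 237 in tetra cells with Cort and 194 to 210.2 with vehicle. In wt cells the sum was 285 to 310 with Cort and 267 to 298 with vehicle. The part of these markers in the Notch4 values was not tested.

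Notch2 (NM_010928, chr3:98013538-98150367, plus strand) was the main receptor transcript. It had 6142, 6241 and 6266 normalised counts in tetra cells with TCA plus Cort, 5705, 4814 and 6407 with TCA, 6267, 6646 and 6781 with Cort, and 5409.6, 5282 and 5171 with vehicle. In wt cells it had 5510.4, 5483 and 5316 with TCA plus Cort, 5353, 5444 and 6473 with TCA, 6454, 6485 and 5349.7 with Cort, and 6272, 6389 and 6678 with vehicle. Among these groups the tetra Cort libraries all lay above the tetra vehicle libraries, and the wt groups with and without Cort overlapped.

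With Cort alone Notch2 rose 1.24-fold in the tetra line (0.28 ± 0.042, adjusted p = 3.0e-04) and had a ratio of 0.946 in the wt line (adjusted p = 0.627). The difference between the lines was 0.39 ± 0.082 on the log2 scale (adjusted p = 0.011). On top of TCA the ratios were 1.10 in the tetra line (adjusted p = 0.831) and 0.944 in the wt line (adjusted p = 0.539), and their difference was 0.23 (95% interval -0.021 to 0.48, adjusted p = 0.694). Under vehicle Notch2 was 1.22-fold lower in the tetra line than in the wt line (-0.29 ± 0.042, adjusted p = 2.1e-06). With TCA alone it had a ratio of 1.07 in the tetra line (adjusted p = 0.941) and fell 1.12-fold in the wt line (-0.16 ± 0.063, adjusted p = 0.0475), although the wt groups overlapped. The wt call was lost without vehicle replicate 1 (adjusted p = 0.0745), 2 (0.0933) or 3 (0.164) and without TCA replicate 1 (0.209) or 2 (0.15), and without TCA replicate 3 it was 1.19-fold lower (adjusted p = 2.9e-05). The difference between the lines in the response to TCA was 0.25 on the log2 scale (adjusted p = 0.0996). It passed the test without wt TCA replicate 3 (0.34, adjusted p = 0.0189) or tetra TCA replicate 2 (0.36, adjusted p = 0.0089).

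Notch3 (NM_008716, chr17:32120820-32166890, minus strand), a receptor known from smooth muscle and pericytes, separated the lines. It had 1263, 1357 and 1054 normalised counts in tetra cells with TCA plus Cort, 1324, 1002 and 1174 with TCA, 1007, 1339 and 1074 with Cort, and 1242, 1167 and 1201 with vehicle. In wt cells it had 608, 543 and 577 with TCA plus Cort, 401, 512 and 530.3 with TCA, 704, 660.5 and 607 with Cort, and 735, 743 and 762 with vehicle. Every tetra library lay above every wt library.

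Under vehicle Notch3 was 1.61-fold higher in the tetra line than in the wt line (0.69 ± 0.056, adjusted p = 5.5e-11). With TCA alone it had a ratio of 0.969 in the tetra line (adjusted p = 0.957) and was 1.55-fold lower in the wt line (-0.51 ± 0.073, adjusted p = 4.5e-05), and the difference, tetra minus wt, was 0.59 ± 0.14 (adjusted p = 0.0022). With Cort alone the ratios were 0.947 in the tetra line (adjusted p = 0.738) and 0.88 in the wt line (adjusted p = 0.253). On top of TCA they were 1.05 in the tetra line (adjusted p = 0.973) and 1.20 in the wt line (adjusted p = 0.181), and without replicate 3 of TCA the wt ratio was 1.26 (adjusted p = 0.00353). The wt response to Cort with TCA exceeded that without TCA by 0.45 ± 0.12 on the log2 scale (adjusted p = 0.0489). That call was lost in 9 of 12 fits that each left out 1 library (adjusted p = 0.0706 to 0.14), and was kept without Cort 1, TCA 2 or TCA 3.

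Notch1 (NM_008714, chr2:26457902-26503822, minus strand), the receptor most studied in leukaemia, passed the test in no comparison. It ranged over 298 to 477 normalised counts in the 12 tetra libraries and 272 to 446 in the 12 wt libraries. With Cort the ratios were 1.08 in the tetra line and 0.881 in the wt line, and with TCA 1.08 in the tetra line and 1.14 in the wt line. The wt TCA libraries had 378, 346 and 446. The wt difference with TCA passed the test without TCA replicate 2 (adjusted p = 0.0391) and with scaling to total exon reads (adjusted p = 0.0466). Notch1 overlaps 0610009E02Rik on the plus strand and Mir6996 on the minus strand, and the counting is not stated to have used strand, so reads of the overlap cannot be assigned to 1 gene.

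As shares of the 4 receptors' reads per 1000 bases, Notch2 took 71.7% to 84.5% over the 24 libraries, Notch3 8.27% to 21.9%, Notch1 4.50% to 7.12% and Notch4 0.507% to 2.18%. Notch3 took 21.5% ± 0.33 of receptor reads in tetra vehicle and 12.4% ± 0.17 in wt vehicle (SD, n = 3 each). With TCA its share was 20% ± 1.96 in the tetra line and 9.16% ± 0.987 in the wt line. Notch4 took 2.04% ± 0.067 in tetra Cort and 1.02% ± 0.44 in tetra vehicle. These shares are RNA levels and say nothing of receptor at the cell surface.

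**Figure D4:**
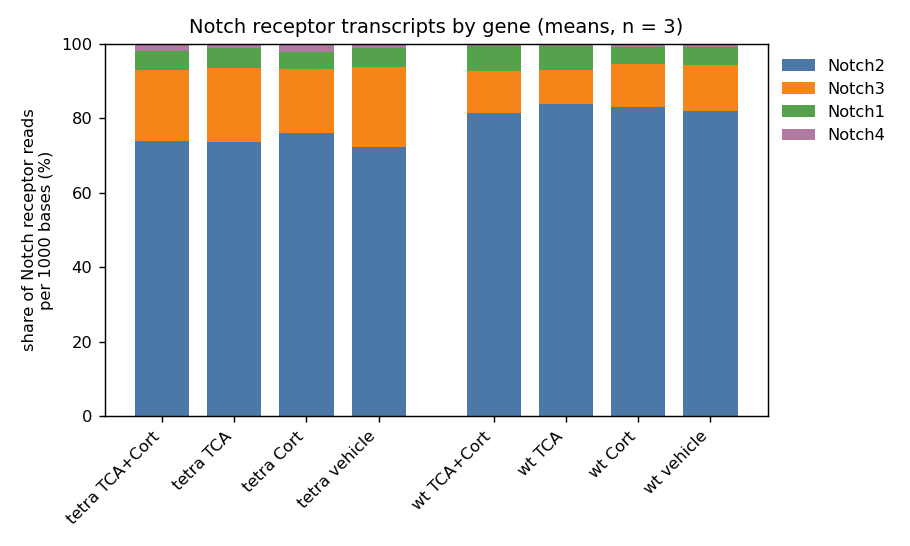
Stacked bars of the mean share (percent, vertical axis) of Notch2, Notch3, Notch1 and Notch4 in the 4 receptors' reads per 1000 bases, by group (n = 3), with the tetra groups on the left and the wt groups on the right. Notch2 takes most of each bar, and Notch3 takes 17.2% to 21.5% in the tetra groups and 9.16% to 12.4% in the wt groups.

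Jag1 (NM_013822, chr2:137081451-137116520, minus strand), the main Jagged ligand here, had the largest fold with TCA of the 8 tested members, in the wt line. It had 381, 390.3 and 387 normalised counts in tetra cells with TCA plus Cort, 365, 292 and 331 with TCA, 385, 447 and 447 with Cort, and 286, 363 and 378 with vehicle. In wt cells it had 627, 588 and 572 with TCA plus Cort, 527, 548 and 534 with TCA, 237, 258 and 272 with Cort, and 252, 222 and 224 with vehicle. All 6 wt libraries with TCA lay above all 12 tetra libraries, and all 6 wt libraries without TCA lay below them.

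With TCA alone Jag1 was 2.31-fold higher in the wt line (0.87 ± 0.060 on the deposited scale, adjusted p = 3.6e-08), whereas in the tetra line the ratio was 0.962 (adjusted p = 0.97). The difference, tetra minus wt, was -1.26 ± 0.15 on the log2 scale (adjusted p = 2.6e-06). Under vehicle Jag1 was 1.47-fold higher in the tetra line than in the wt line (0.55 ± 0.10, adjusted p = 1.0e-04). With Cort alone the ratios were 1.25 in the tetra line (adjusted p = 0.101) and 1.10 in the wt line (adjusted p = 0.55), and on top of TCA they were 1.17 in the tetra line (adjusted p = 0.543) and 1.11 in the wt line (adjusted p = 0.259). The genes most like Jag1 over the 8 group means, of 10770 compared, were Uspl1 (Pearson r = 0.994), Sec22c (0.993), Gtf2f2 (0.992), Mcm2 (0.992) and Pcid2 (0.991). This is again a description that takes no account of the size of a change or of the spread within groups. Group means ran from 242 to 289 for Gtf2f2 and from 355 to 684 for Sec22c.

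The wt libraries with TCA also differed in markers of cell type. The summed 10 epithelial markers, nearly all Krt14, lay at 170 to 281 normalised counts in wt TCA and 1094 to 1241 in wt vehicle, and at 606 to 611 in tetra TCA and 543 to 677 in tetra vehicle. The 7 mesenchymal markers summed to 156647 to 170688 in wt TCA and 222334 to 228160 in wt vehicle, and to 188427 to 241019 in tetra TCA and 197297 to 202174 in tetra vehicle. The 6 immune markers, nearly all Cd68, summed to 90.8 to 105 in wt TCA and 168 to 214 in wt vehicle. In the tetra line they summed to 89.6 to 94.1 with TCA and 97.4 to 112 with vehicle. The 5 endothelial ones, nearly all Cdh5, summed to 124 to 164 in wt TCA and 267 to 298 in wt vehicle. In the tetra line the endothelial sums were 152 to 218 with TCA and 194 to 210.2 with vehicle. The part of these markers in the results for Jag1, Notch3 and Notch2 was not tested. The labels name no batch, so TCA and a difference in the handling of the wt TCA libraries cannot be told apart. In bulk RNA, fewer cells of a type and less RNA per cell cannot be told apart. The authors' deposited table for TCA against vehicle in the wt line names 5 group labels for its 6 libraries in its header. Fewer of these labels are for vehicle than for TCA. Read in the order of the columns, they place vehicle replicate 3 with TCA and leave TCA replicate 3 with no label. Jag1 had 224 normalised counts in vehicle replicate 3 and 534 in TCA replicate 3. The table calls 0 genes, and Jag1 has a log2 fold change of 0.88 there, with an adjusted p of 0.806. If the labels were used in that order, these values are no test of TCA against vehicle. Which grouping gave them was not tested.

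Jag2 (NM_010588, chr12:112908590-112929495, minus strand), the other Jagged ligand, was near the minimum for testing, with 5.29 to 17.6 normalised counts in the 12 tetra libraries and 7.02 to 35.6 in the 12 wt libraries. The highest value came from replicate 3 of TCA in the wt line, where the other two TCA libraries had 17 and 16.2. TCA over vehicle gave ratios of 1.42 in the tetra line (adjusted p = 0.941) and 1.90 in the wt line (adjusted p = 0.0754), with overlapping groups in both. No difference in Jag2 was called, although the wt one with TCA was without vehicle replicate 3 (adjusted p = 0.0413) or TCA replicate 2 (0.0442). Mir6941 overlaps Jag2 on the same strand.

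Of 59 further pathway genes, 46 were abundant enough to test, and the ligands Dll1, Dll3, Dll4 and Dlk1 were not. With Cort against vehicle 3 of 46 rose in the tetra line, where 2.47% of all genes were higher: Dlk2, a non-canonical ligand (1.34-fold, adjusted p = 0.0027), and the corepressors Tle1 (1.18-fold, adjusted p = 0.00967) and Spen (1.14-fold, adjusted p = 0.0232). Dlk2 was called in every fit that left out 1 library. Tle1 was lost without vehicle replicate 3 (adjusted p = 0.0589), and Spen without vehicle replicate 1 (0.126), 2 (0.0921) or 3 (0.0655) or Cort replicate 3 (0.0748). None of the 46 was called with Cort alone in the wt line or with Cort on top of TCA in either line, where 1789, 2204 and 984 of all genes had an unadjusted p below 0.05. Without wt TCA replicate 3, 16 of the 46 were called with Cort on top of TCA in the wt line, 12 higher and 4 lower. In that fit 20.1% of all genes were called. Without wt Cort replicate 3, Dlk2 and Spen were higher and Rbpj lower with Cort alone in the wt line. In the tetra line on top of TCA, Dlk2 was called without TCA replicate 3 (adjusted p = 0.0415) or TCA plus Cort replicate 2 (0.0412), and Numbl, an inhibitor related to Numb, without TCA plus Cort replicate 3 (0.0093). The median over the 46 was 0.0044 in the tetra line and -0.0067 in the wt line with Cort alone, against -0.0013 and 8.7e-05 over all tested genes. Tle1 also differed between the lines in its response to Cort (0.30 ± 0.075 on the log2 scale, adjusted p = 0.0473), a call that was lost in all 12 fits that left out 1 library.

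With TCA against vehicle, 30 of the 46 genes were called in the wt line, 11 higher and 19 lower, and 0 in the tetra line. The 30 make up 65.2% of the 46, beside the 57.4% of all genes (28.8% higher and 28.6% lower), and the median over all 46 was -0.079 on the deposited scale beside 0.0017 over all genes. In the wt line Rbpj, the DNA-binding partner of the receptors' inner part, was 1.79-fold higher (adjusted p = 1.1e-08). Tle2, a corepressor, was 4.50-fold lower (adjusted p = 1.5e-08), Dtx3, a ubiquitin ligase of the Deltex family, 1.88-fold lower (adjusted p = 6.7e-08), and Maml3, a coactivator that binds Rbpj, 1.71-fold lower (adjusted p = 1.0e-07). Among the proteins that cut the receptors, 5 of 8 were lower and none higher in the wt line, with Adam10, a protease that sheds the outer part, 1.49-fold lower (adjusted p = 1.5e-07) and Ncstn, a subunit of gamma-secretase, 1.43-fold lower (adjusted p = 2.6e-06). The response to TCA differed between the lines for 21 of 46 genes, 45.7% beside 41.5% of all genes.

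**Figure D5:**
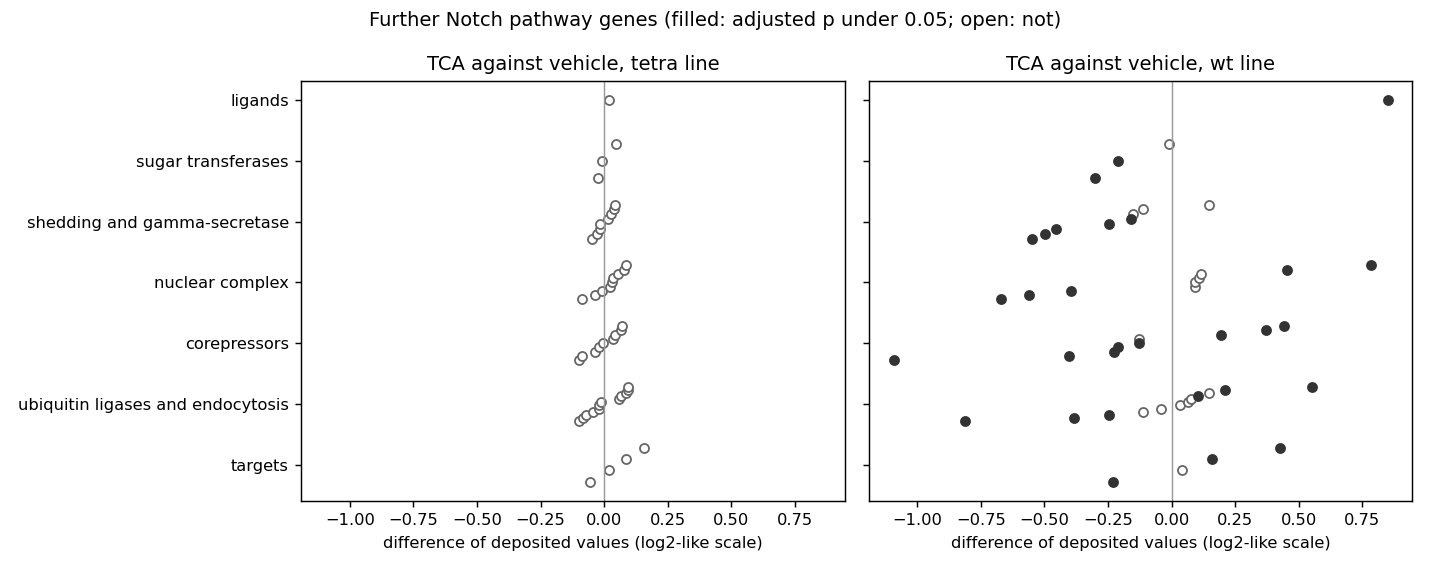
Difference of deposited values, TCA minus vehicle (horizontal axes, log2-like scale), for the 46 tested further pathway genes in rows by role, in the tetra line on the left and the wt line on the right. Each point is a gene, filled where its adjusted p was under 0.05. The tetra panel has 0 filled points and the wt panel 30.

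Under vehicle, 23 of the 46 genes differed between the lines, 7 higher and 16 lower in the tetra line, which is 50% beside 44.2% of all genes (21.4% higher and 22.8% lower). Rbpj was 1.60-fold higher in the tetra line (adjusted p = 5.8e-12), Dtx3 1.68-fold lower (adjusted p = 3.6e-12), Spen 1.44-fold lower (adjusted p = 2.4e-11) and Tle2 2.97-fold lower (adjusted p = 6.2e-10). Among further targets of the pathway, Hes6 was 1.37-fold lower (adjusted p = 0.0486) and Myc, a growth regulator, 1.19-fold lower (adjusted p = 1.4e-04) in the tetra line than in the wt line.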

How the data were processed

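Total RNA from 24 samples of C127 cells was depleted of ribosomal RNA (Ribo-Zero Plus) and sequenced from stranded libraries (TruSeq), per the labels' protocols. Per the submitters' processing notes, the authors trimmed reads with cutadapt (version not given), aligned them to mm10 with STAR 2.7.0f and used HOMER 4.10.4. The authors summed exon reads per gene, per the file headers, and deposited log2-like values after variance stabilisation, in 6 tables of 6 libraries made one by one. No header states a strand setting, and 5 of the 6 headers name Halo where the column names say GFP. The authors' log2 fold change, p-value and adjusted p-value were deposited beside these values. The transcript length, in another column of the deposited tables, was used for levels per 1000 bases.

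The deposited scale was inverted to read counts: 100% of recovered values below 1000 were whole within 0.01, and 108 member counts present in 2 tables all matched. Counts were scaled by median ratios. Within a table, limma 3.58.1 (R 4.3.3, intensity trend) was run on the deposited values. Across tables, limma was run on log2(normalised count + 1). Genes averaging at least 10 normalised counts entered, and p-values were adjusted over all of them by Benjamini-Hochberg, with calls below 0.05. The limma fit was tested on simulated counts, on log2(normalised count + 1), for Cort against vehicle in wt cells and for the Cort difference between the lines. The inversion and the deposited scale did not enter that test. Alternatives were scaling to total exon reads, no filter, no trend, limma voom on the counts, a replicate block, log2 normalised counts or a pseudocount of 5, and leaving out each library.

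Hes1 was left out of counts of members, and has no test where vehicle libraries enter. The members and gene lists were chosen with earlier results of these data known. The text names the 9 members in every comparison and, from a list of 59 further pathway genes, up to 4 called genes a comparison. Per1 and Tsc22d3 served as a check that Cort acted. The genes most like Hes1 or Jag1 were the 5 with the highest Pearson r among genes with a mean of at least 50 normalised counts. Named outside this rule, after their values were seen, were Nr3c1, Adam10, Ncstn, Hes6, Myc, Numbl, Hdac2, Kat2a, Kat2b, Dtx4, Pofut1, Ccnd1 and, where their calls changed without a library, Dlk2, Spen and Rbpj. The comparison of the lines in the Cort response with TCA present was added after seeing the data.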

Additional observations from a re-analysis of the deposited data

Results flagged for a closer look

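In all, 11 results were singled out, all differences on the log2 scale. For 10 of them a response differed between the lines, or between settings with and without TCA, in a test of the difference itself. Hes1 is listed with no test, because its libraries moved opposite ways in the lines. That is the response for which it was chosen, so its listing followed from the choice and adds no support.

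In the response to Cort, tetra minus wt, the difference was -0.90 for Hes1, the value for which it was chosen, and it was not tested. It was 0.39 for Notch2 and 1.54 for Notch4. The Notch4 call was kept in 3 of 12 fits that each left out 1 library. Hes1 was lower with Cort in all 3 tetra libraries and higher in all 3 wt libraries, set against the vehicle libraries of each line. Tle1, a corepressor, had a difference of 0.30, a call kept in 0 of 12 fits that each left out 1 library. In the response to TCA, tetra minus wt, the difference was 0.59 for Notch3 and -1.26 for Jag1. Among the further pathway genes it was -0.86 for Rbpj, 2.37 for Tle2, 0.82 for Maml3 and 0.78 for Dtx3. These are the 4 with the smallest adjusted p of 21 called. In this comparison 41.5% of all tested genes were called. In the wt line, the Cort response of Notch3 with TCA minus that without was 0.45, a call kept in 3 of 12 such fits.

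The differences that involve TCA rest on wt libraries in which 57.4% of all tested genes were called with TCA against vehicle. The labels name no batch, so TCA and the handling of these libraries cannot be told apart. Cell type markers moved too in these libraries, as given above. Their part in these differences was not tested.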

How the results depend on the processing

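No call of Lfng with Cort, of Jag1 or Notch3 with TCA in wt cells, of Notch2, Notch3 or Jag1 between the lines, or of Jag1 and Notch3 in the response to TCA between the lines was lost under any alternative or leave-out. For the members other than Hes1 that were called under at least 1 setting, 354 values under an alternative or leave-out were set beside the reported ones: 298 kept their direction and their side of the threshold, 42 kept the direction and lost the call, and 14 gained one. Scaling to total exon reads moved the median of all genes by -0.10 on the log2 scale in the wt difference with and without TCA, and by less in the other comparisons. Depth limits Hey1, Jag2 and, in part, Notch4. The causes of the changes below were not tested.

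On log2 scales in place of the compressed deposited scale, Hes1 with Cort was -0.53 (total exon reads) and -0.54 (voom and log2 normalised counts) in tetra cells, beside -0.19 as deposited, and 0.42 (total exon reads) and 0.36 (voom and log2 normalised counts) in wt cells, beside 0.13. With TCA in tetra cells it was 0.17 with total exon reads, beside 0.076. These values carry no test. With total exon reads, Notch1 with TCA in wt cells was called (adjusted p = 0.0466), 1 gene was called with TCA in tetra cells, 16 genes with Cort on top of TCA in wt cells, 1 member (Notch4 at adjusted p = 0.0595) with Cort on top of TCA in tetra cells. Of the differences between responses, 1 member and 0 further pathway genes were then called for Cort between the lines, where Notch4 had adjusted p = 0.0684, and 0 members for the wt difference with and without TCA, where Notch3 had 0.35 (adjusted p = 0.116). With no filter, 5 genes were called with TCA in tetra cells, 1 member and 0 further pathway genes for Cort between the lines (Notch4 adjusted p = 0.129), and 269 genes and 0 members (Notch3 adjusted p = 0.0824) for the wt difference with and without TCA. With no trend, Notch4 was called with TCA in wt cells (adjusted p = 0.0439), 1 further pathway gene was called with Cort in wt cells, 1 member (Notch4 at 0.0838) with Cort on top of TCA in tetra cells, 88 genes, 0 members and 0 further pathway genes for Cort between the lines (Notch2 at 0.198, Notch4 at 0.234), and 51 genes and 0 members (Notch3 at 0.155) for the wt difference with and without TCA. Limma voom called 1 member with Cort on top of TCA in tetra cells (Notch4 at 0.0666) and lost Notch2 with TCA in wt cells (0.0504), as did total exon reads (0.0947), no filter (0.0691) and no trend (0.0849).

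The labels give replicate numbers without saying that they mark a shared culture or day. Deviations of libraries with the same number correlated between -0.43 and 0.49, every pair was above 0.1 in none of the 12 comparisons, and at most 2 of 6 libraries correlated best with their own number, so the numbers were not taken as pairs. With a replicate block, 5 further pathway genes and Jag1 (adjusted p = 0.0167) were called with Cort in tetra cells, 5 members with TCA in wt cells, with Jag2 (0.031) and Lfng (0.043) gained, 11 genes with TCA in tetra cells, 9 genes with Cort on top of TCA in wt cells, 1 further pathway gene with Cort on top of TCA in tetra cells, 0 further pathway genes for Cort between the lines, and 236 genes and 0 members for the wt difference with and without TCA (Notch3 adjusted p = 0.0958).

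Leaving out 1 library at a time gave ranges as follows, with Hes1 left out of the members counted. With Cort in wt cells, 148 (without vehicle 3) to 500 genes (without Cort 3) and 0 to 3 further pathway genes were called. With Cort in tetra cells, 1 to 3 further pathway genes were called. With TCA in wt cells, 2 to 4 members were called. With TCA in tetra cells, 1 to 6 genes were called. With Cort on top of TCA in wt cells, 6 to 2569 genes, 0 to 2 members and 0 to 16 further pathway genes were called, the highest each time without TCA replicate 3, and Hes1 was -5.4e-04 to 0.13. With Cort on top of TCA in tetra cells, 1 to 2 members and 0 to 1 further pathway genes were called. For Cort between the lines, 1 to 2 members and 0 to 0 further pathway genes were called. For TCA between the lines, 2 to 4 members were called. For the wt difference with and without TCA, 145 to 1659 genes (the highest without TCA replicate 3), 0 to 1 members and 0 to 6 further pathway genes were called, and Hes1 was -0.35 to 0.0067. For the Cort response with TCA between the lines, 52 to 120 genes were called.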

Other observations

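In wt cells with TCA against vehicle, the further pathway genes were called in every role, where 28.8% of all tested genes were higher and 28.6% lower. Of 9 corepressors tested, 3 were higher and 5 lower, with Hdac2, a histone deacetylase, 1.39-fold higher (adjusted p = 1.1e-04) and Spen 1.34-fold lower (adjusted p = 2.1e-05). Of 9 genes of the nuclear complex, 2 were higher and 3 lower, with Kat2a, a histone acetyltransferase, 1.40-fold higher (adjusted p = 1.0e-05) and its close relative Kat2b 1.37-fold lower (adjusted p = 2.4e-05). Of 12 ubiquitin ligases and endocytosis genes, 3 were higher and 3 lower, with Dtx4 1.52-fold higher (adjusted p = 1.7e-06) and Numbl, a relative of the Notch inhibitor Numb, 1.35-fold lower (adjusted p = 6.9e-05). Of 3 sugar transferases, 2 were lower and none higher, with Pofut1, which adds fucose to the receptors, 1.27-fold lower (adjusted p = 1.4e-04). Of 4 targets, Myc (1.36-fold) and Ccnd1 (1.11-fold) were higher and Hes6 was 1.49-fold lower, with overlapping libraries. In tetra cells 0 of these genes were called with TCA. The genes named here were chosen after their values were seen.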
